A study of Mus musculus with 12 samples.

Results

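The genes described here are 10 marker genes of the cells that line liver blood vessels, given by symbol: *Stab1*, *Stab2*, *Lyve1*, *Clec4g* and *Fcgr2b* for the sinusoids, *Kdr*, *Pecam1* and *Cdh5* for endothelium in general, and *Cd34* and *Plvap* for capillary-type endothelium. All 10 were found among the 17007 genes listed, and all 10 passed the filter on low values (at least 0.5 FPKM in at least 3 of 12 libraries). FPKM, fragments per kilobase of transcript and per library size, is a level per transcript length, so that different genes can be compared on it.

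Liver sinusoids are lined by a specialized endothelium with open pores and no continuous basement membrane, which clears waste molecules from the blood through scavenger receptors and sends growth signals to hepatocytes. When this endothelium loses its specialization, as in cirrhosis and in many liver tumors, it takes on features of ordinary capillaries, among them a basement membrane and surface CD34. Tumor vessels also grow by sprouting, under the control of VEGF, angiopoietin and Notch signals.

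RNA of bulk tissue was sequenced from 12 mice in 4 groups of 3: normal liver (NL) of wild-type C57BL/6 mice, and liver tumors driven by c-MYC and MCL1 with *Rictor* and *Tsc2* deleted (*c-MYC/MCL1/RictorKOTsc2KO*), from mice on vehicle, on MLN0128 or on everolimus. They were made by hydrodynamic tail vein injection of plasmids, Cre included, into floxed mice of the C57BL/6J background, a route that delivers DNA mainly to hepatocytes, so the vessels of a tumor come from cells that were not the target of the injection. MLN0128 inhibits the kinase mTOR in both of its complexes and everolimus, a rapamycin analog, acts on mTORC1. By the labels and methods, both drugs were given by gavage at 1 mg/kg per day on 6 days a week for 3 weeks. Treatment began on day 6 after injection, and tissue was taken at 3.7 weeks. For the sequenced tumors the study's results give 3 days of treatment instead, and which holds cannot be told here. Normal liver differed from the tumors in genotype and injection as well as in being tumor free, and these cannot be told apart.

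Reads recovered from the FPKM numbered 17145369 to 25159397 per library. The deposited FPKM carry a scaling between libraries beyond these totals, with factors of 0.585 to 0.596 in NL and 1.10 to 1.37 in the tumors. With plain totals in its place, the median log2 difference of all tested genes between vehicle tumors and NL moved from 0.06 to 0.62, and the genes called went from 2428 lower and 2282 higher to 1123 lower and 5204 higher. Ratios of 2 genes within a library do not depend on this scaling and are given beside the differences. MLN0128 replicates 1 and 2 held Xist RNA (191 and 155 FPKM) and none of 4 Y-linked transcripts, unlike the other 10 libraries, so sex and MLN0128 cannot be fully told apart. *Alb*, *Ttr* and other hepatocyte markers, 8 in all, summed to 82694 to 101977 FPKM in NL and 4414 to 6683 with vehicle.

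The DNA just before the start of transcription is shown for the 3 genes that stayed lower in vehicle tumors than in NL under either scaling by the 1.5-fold test below, *Clec4g*, *Fcgr2b* and *Kdr*, and for *Cd34*, the one of the 10 that was higher on the FPKM as deposited. RefSeq promoters were at hand for 6 of the 10. For *Fcgr2b* the stretch shown lies inside the gene as the GENCODE M21 annotation places it (170958617 to 170976547, minus strand). It is thus upstream of the RefSeq start but not of the start in that annotation. Each run holds the 250 bases before the RefSeq start in build GRCm38.p6, read 5′ to 3′ on the strand of the gene, and capitals mark GGAA or its complement TTCC, the core bound by ETS-family factors, to which the endothelial regulators *Erg* and *Fli1* belong. The windows are chr8:3720652-3720901, minus strand, for *Clec4g*; chr1:170976072-170976321, minus strand, for *Fcgr2b*; chr5:75978456-75978705, minus strand, for *Kdr*; and chr1:194938571-194938820, plus strand, for *Cd34*.
Clec4g: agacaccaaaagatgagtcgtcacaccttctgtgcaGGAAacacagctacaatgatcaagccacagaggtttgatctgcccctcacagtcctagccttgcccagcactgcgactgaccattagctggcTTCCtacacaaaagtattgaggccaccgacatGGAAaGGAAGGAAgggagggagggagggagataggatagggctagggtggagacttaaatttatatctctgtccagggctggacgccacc
Fcgr2b: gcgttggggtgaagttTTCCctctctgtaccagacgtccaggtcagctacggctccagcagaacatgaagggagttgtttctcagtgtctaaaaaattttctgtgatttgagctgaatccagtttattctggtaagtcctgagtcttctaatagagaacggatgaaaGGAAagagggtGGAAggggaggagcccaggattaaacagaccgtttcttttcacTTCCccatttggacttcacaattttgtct
Kdr: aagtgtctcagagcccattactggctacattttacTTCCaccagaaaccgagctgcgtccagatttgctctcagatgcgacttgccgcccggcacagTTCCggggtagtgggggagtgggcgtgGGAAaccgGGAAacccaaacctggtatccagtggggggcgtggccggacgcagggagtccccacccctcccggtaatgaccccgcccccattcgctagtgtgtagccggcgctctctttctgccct
Cd34: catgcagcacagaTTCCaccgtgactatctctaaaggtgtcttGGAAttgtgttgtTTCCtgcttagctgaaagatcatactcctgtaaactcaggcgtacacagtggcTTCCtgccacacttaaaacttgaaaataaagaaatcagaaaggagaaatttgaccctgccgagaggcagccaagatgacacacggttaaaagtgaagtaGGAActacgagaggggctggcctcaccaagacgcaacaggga
*Clec4g* and *Cd34* held 5 matches each and *Fcgr2b* and *Kdr* 4 each, counted on both strands with overlaps allowed, and *Stab1* and *Stab2* held 6 each. GGAA was present in 93.4% of 32851 promoters of the same length, so its presence does not set these genes apart. GATAA, a motif bound by GATA factors such as the sinusoidal regulator *Gata4*, was found in none of the 6 windows and in 22.6% of all promoters. With only 6 windows its absence does not set these genes apart either.

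Most of these genes were lower in vehicle tumors than in normal liver. By treat, the limma test of whether a difference exceeds 1.5-fold, 6 of 10 were lower and 0 higher at an adjusted p of 0.05, where 16.9% of all tested genes were lower and 15.9% higher. The 6 were 4 of the 5 sinusoidal genes, the VEGF receptor gene *Kdr* and *Plvap*, which codes for a protein of the diaphragms that close endothelial pores. By limma's moderated test of any difference, 6 were lower and 1 higher, where 33.0% of all genes were lower and 36.0% higher. With no overlap between the groups, 7 lay below NL and 1 above, where 35.1% and 39.0% of all genes did. The median log2 difference of the 10 was -1.17, against 0.06 over all 14397 tested genes. With plain library totals 3 of the 6 were still called lower, where 7.80% of all genes were (*Clec4g*, -3.48; *Fcgr2b*, -2.26; *Kdr*, -0.87), and *Stab1* (-0.28), *Stab2* (-0.57) and *Plvap* (-0.70) were below the median of all genes but were not called. In bulk tissue, fewer endothelial cells and less of a transcript per cell cannot be told apart.

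*Clec4g*, a C-type lectin of sinusoidal endothelium on chromosome 8 (3707064 to 3720651, GRCm38), showed the largest difference of the 10. Its level was 26.5, 28.0 and 29.9 FPKM in the NL libraries and 0.626, 0.405 and 0.523 FPKM with vehicle. The groups were far apart, and the log2 difference of -4.26 (SE 0.169; treat adjusted p = 1.40e-08) was lower than that of all but 1.32% of tested genes. In the tumors the gene rested on 10 to 59 reads per library, so differences among tumors are poorly measured.

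*Fcgr2b*, the inhibitory Fc receptor through which sinusoidal cells clear immune complexes and which B cells and macrophages also carry, was at 16.2, 17.0 and 20.7 FPKM in NL. It was at 1.23, 1.16 and 1.38 FPKM with vehicle, a log2 difference of -3.06 (SE 0.188; limma treat adjusted p = 5.64e-07). Every vehicle library lay below every NL library by a wide margin. Its sequence resembles that of *Fcgr3*, and how the counting treated shared reads is not given in the sources used here.

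*Stab2*, a scavenger receptor that takes up hyaluronan, was at 5.76, 7.87 and 7.98 FPKM in NL and at 2.20, 1.91 and 2.59 FPKM with vehicle (log2 difference -1.34, SE 0.199, limma treat adjusted p = 0.00579). *Stab1*, its relative on sinusoidal cells and some macrophages, was at 4.58, 5.46 and 5.61 FPKM in NL and at 1.97, 1.80 and 2.55 FPKM with vehicle (log2 difference -1.004, SE 0.158, limma treat adjusted p = 0.0345). On the FPKM as deposited neither gene overlapped between the groups. With plain library totals *Stab1* overlapped and *Stab2* did not. The *Stab1* call was the weakest of the 6: it was lost without NL replicate 2 (adjusted p = 0.0865), NL replicate 3 (0.0991), vehicle replicate 1 (0.0875) or vehicle replicate 2 (0.114), although the log2 difference stayed between -0.93 and -1.10 over all libraries left out. On the opposite strand *Stab1* overlaps *Nt5dc2*, which was at 4.19 to 6.75 FPKM in NL and 39.6 to 44.0 FPKM with vehicle, and whether the counting used strand is not given in the sources used here.

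*Lyve1*, a hyaluronan receptor of sinusoidal and lymphatic endothelium and of some macrophages, was the exception among the sinusoidal genes. It was at 2.89, 5.13 and 2.86 FPKM in NL and at 2.16, 2.88 and 4.99 FPKM with vehicle. The groups overlapped over most of their range, and the log2 difference of -0.11 had a 95% interval of -0.83 to 0.61 (limma moderated adjusted p = 0.782). Its sign turned without NL replicate 2 (0.11) or without vehicle replicate 1 (0.09), and with plain library totals (0.58).

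Of the general endothelial genes, *Kdr*, the main signalling receptor for VEGF, was at 5.77, 6.42 and 6.72 FPKM in NL and at 1.21, 1.27 and 1.77 FPKM with vehicle. The groups did not overlap, and the log2 difference was -1.60 (SE 0.116; limma treat adjusted p = 1.34e-05). Where the FPKM of each library were scaled to 1 common sum, *Kdr* was no longer called (-0.82, limma treat adjusted p = 0.174). *Cdh5*, the adhesion molecule of endothelial junctions, was at 5.45, 7.88 and 5.34 FPKM in NL and at 4.10, 4.95 and 6.05 FPKM with vehicle (log2 difference -0.25, 95% interval -0.67 to 0.16, limma moderated adjusted p = 0.252). *Pecam1*, another junction protein, which platelets and leukocytes also carry, was at 3.41, 4.43 and 3.19 FPKM in NL and at 2.56, 2.56 and 3.12 FPKM with vehicle (log2 difference -0.31, 95% interval -0.60 to -0.03, limma moderated adjusted p = 0.0502). *Cdh5* overlapped between the groups and *Pecam1* just did not. With plain library totals the differences of *Cdh5* and *Pecam1* turned to 0.52 and 0.38 on the log2 scale, below the median of all genes at 0.62. Both then passed limma's moderated test as higher with vehicle (adjusted p = 0.0326 and 0.0307). On that scaling *Pecam1* lay above NL with no overlap, and *Cdh5* overlapped.

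The capillary genes moved in opposite directions. *Plvap* was at 24.6, 35.2 and 26.2 FPKM in NL and at 7.87, 8.26 and 10.3 FPKM with vehicle, with no overlap (log2 difference -1.59, SE 0.265, limma treat adjusted p = 0.00572). *Cd34*, a surface sialomucin of capillary endothelium and of blood progenitors, was at 0.42, 0.361 and 0.25 FPKM in NL and at 0.941, 0.898 and 0.960 FPKM with vehicle. Each vehicle library was thus above each NL library, with a log2 difference of 0.53 (SE 0.120) that passed limma's moderated test (adjusted p = 0.00210) but not the test against 1.5-fold. *Cd34* was the lowest of the 10 genes in NL, resting on 19 to 33 reads per library there, and at such a level the added 1 FPKM compresses the difference: with a pseudocount of 0.1 in place of 1, and with limma's voom on recovered reads, it was called higher by the 1.5-fold test as well.

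**Figure D1:**
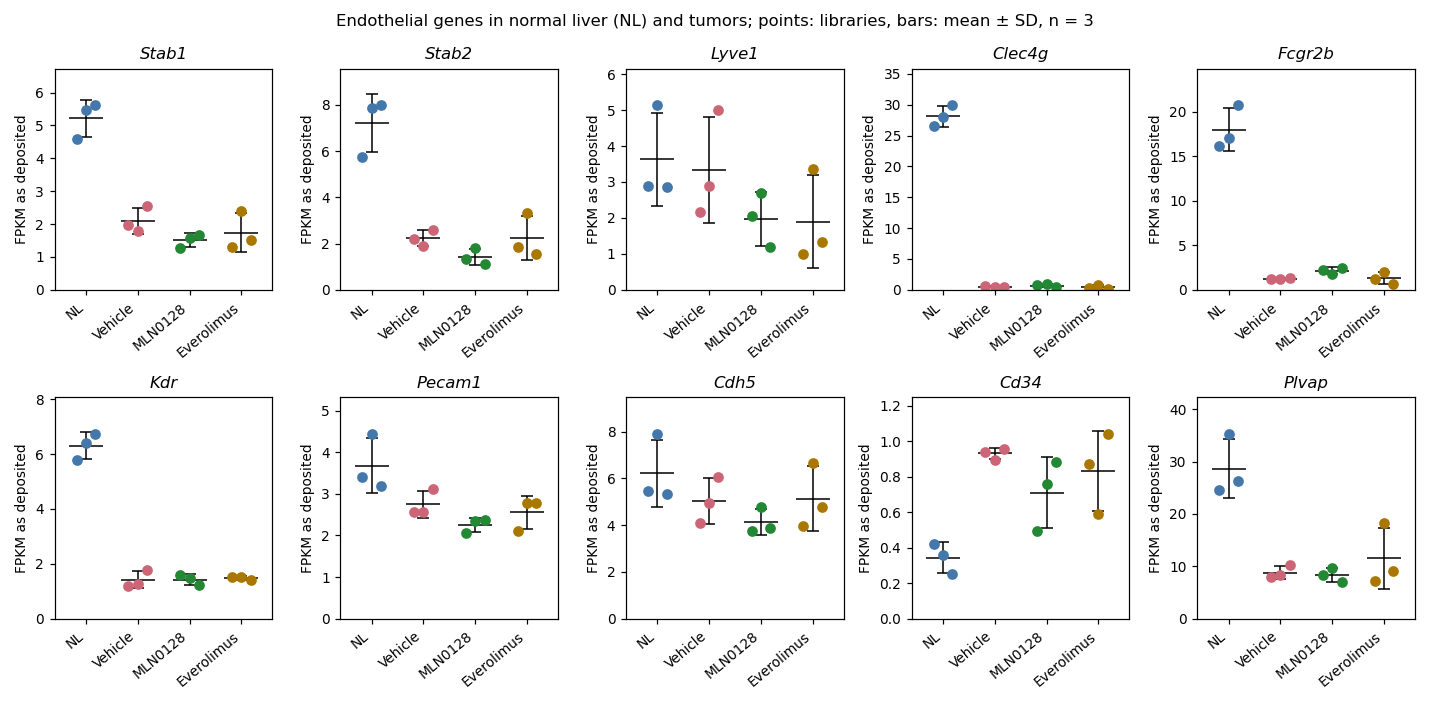
FPKM as deposited (vertical axes, each from 0) of the 10 endothelial genes in the 4 groups (NL is normal liver), one point per library, with the mean and SD of 3 libraries in black. The tumor libraries lie below the NL libraries for *Stab1*, *Stab2*, *Clec4g*, *Fcgr2b*, *Kdr* and *Plvap*, and above them for *Cd34*, while *Lyve1* and *Cdh5* overlap.

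**Figure D2:**
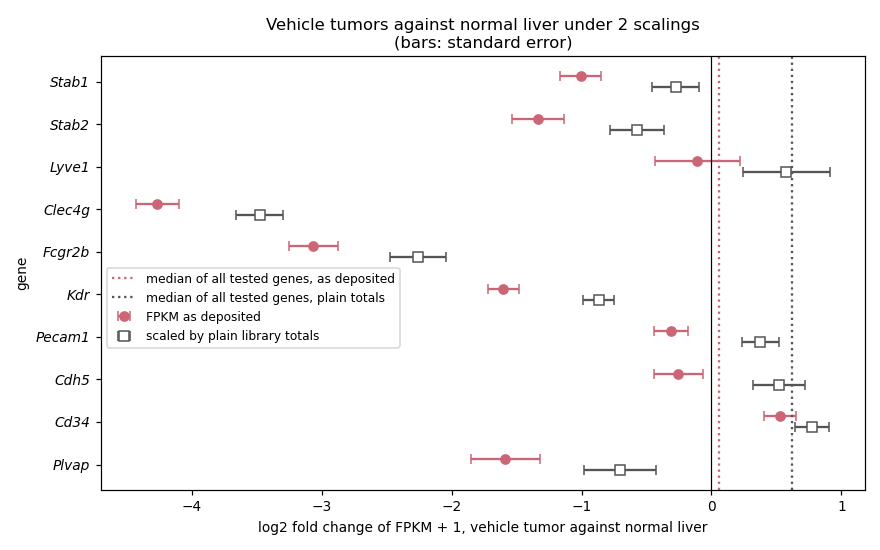
Log2 difference of FPKM + 1 between vehicle tumors and normal liver for each gene (horizontal axis, bars are the standard error), as deposited (filled circles) and with plain library totals (open squares), with the median of all tested genes as dotted lines at 0.06 and 0.62. *Clec4g*, *Fcgr2b* and *Kdr* stay well below 0 under both scalings, and *Lyve1*, *Pecam1* and *Cdh5* change sign.

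The order of the genes changed with these differences. In NL, *Plvap* (28.7 ± 5.71 FPKM, mean ± SD, n = 3) and *Clec4g* (28.1 ± 1.70 FPKM) were highest and did not differ beyond their spread, followed by *Fcgr2b* (17.97 ± 2.40 FPKM), which overlapped neither neighbour. *Stab2* (7.20 ± 1.25 FPKM), *Kdr* (6.30 ± 0.486 FPKM), *Cdh5* (6.22 ± 1.44 FPKM) and *Stab1* (5.22 ± 0.556 FPKM) formed a run in which each overlapped the next, *Pecam1* and *Lyve1* came after them and overlapped each other, and *Cd34* (0.344 ± 0.0863 FPKM) was last. With vehicle, *Plvap* (8.81 ± 1.31 FPKM) was still first, *Cdh5* (5.03 ± 0.978 FPKM) was second, and *Clec4g* (0.518 ± 0.111 FPKM) was last, below *Cd34* (0.933 ± 0.0318 FPKM) with no overlap.

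Divided by *Cdh5* in the same library, which removes any scaling between libraries and describes each gene relative to a transcript of all endothelium, 6 genes lay lower in each of the 9 tumors than in each NL library, where 15.8% of all genes did. *Clec4g* went from a mean ratio of 4.67 in NL to 0.107 with vehicle, a 43.7-fold difference, and *Fcgr2b* from 3.00 to 0.254, an 11.8-fold difference. *Kdr* went from 1.04 to 0.281, *Stab2* from 1.18 to 0.450, *Plvap* from 4.63 to 1.76 and *Stab1* from 0.861 to 0.422, so these last genes changed by 2.04-fold to 3.71-fold. *Cd34* lay above NL in each of the 9 tumors (mean 0.0566 in NL and 0.190 with vehicle), where 31.2% of all genes did, and *Pecam1* (0.595 and 0.552) and *Lyve1* (0.572 and 0.644) overlapped. With *Pecam1* as the divisor the same 6 genes lay below NL and *Cd34* above it in the 9 tumors, where 15.4% and 39.9% of all genes did.

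**Figure D3:**
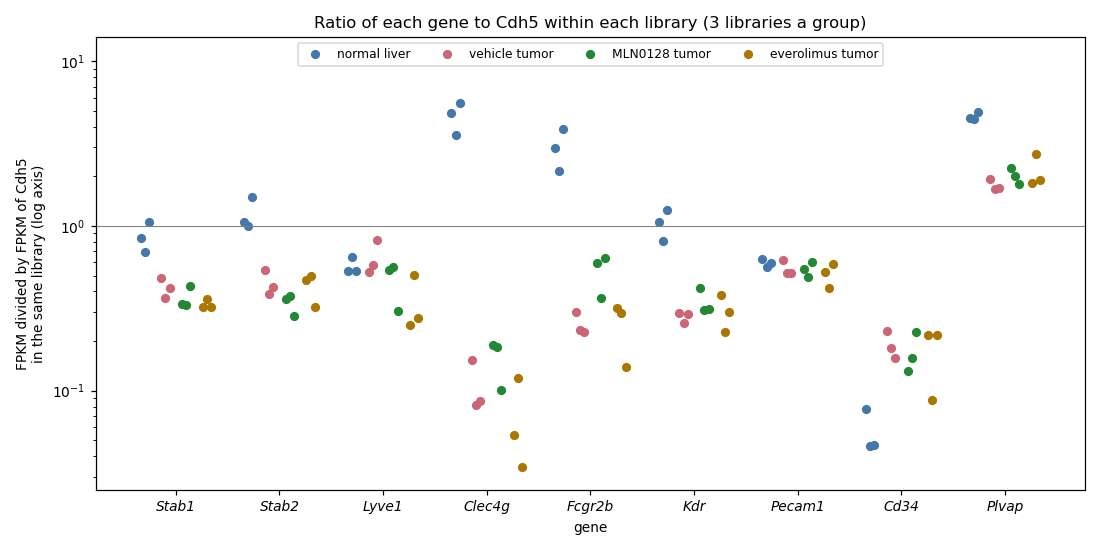
FPKM of each gene divided by the FPKM of *Cdh5* in the same library (log axis), one point per library, 3 libraries in each of the 4 groups. *Clec4g* goes from between 3.55 and 5.60 in normal liver to between 0.0342 and 0.190 in the 9 tumors, whereas *Pecam1* stays between 0.418 and 0.626 throughout.

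The other sinusoidal genes of a hand-written list were lower too. By treat, 9 of 10 were lower in vehicle tumors and 0 higher, where 16.9% and 15.9% of all genes were. Their median log2 difference was -1.92. The largest differences were in *Dnase1l3*, a secreted nuclease (-2.94, SE 0.171, limma treat adjusted p = 4.01e-07), and *Ehd3*, a membrane-trafficking protein (-2.62, SE 0.266, limma treat adjusted p = 3.88e-05). *Dnase1l3* went from 11.1 ± 1.73 FPKM to 0.583 ± 0.267 FPKM. The list's exception was *Gata4*, a transcription factor of sinusoidal endothelium that other liver cells can also carry (0.29, limma moderated adjusted p = 0.109; chosen after its value was seen). With plain totals 6 of the 10 were lower and 1 higher, where 7.80% and 36.1% of all genes were.

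Of 8 tested genes that liver endothelium uses to signal to hepatocytes and to regulate flow, 4 were lower by treat and 0 higher (median -1.11). Of all genes, 16.9% were lower and 15.9% higher. *Bmp2*, which drives hepcidin expression in hepatocytes, went from 7.77 ± 0.156 FPKM in NL to 0.951 ± 0.0871 FPKM with vehicle (log2 difference -2.17, SE 0.146, limma treat adjusted p = 2.51e-06). *Hgf*, a hepatocyte growth factor made by endothelial and stellate cells, had a log2 difference of -1.75 (SE 0.198, limma treat adjusted p = 2.93e-04), and the other 2 were the Wnt-pathway genes *Wnt2* (-1.43) and *Rspo3* (-1.39). The same 4-to-0 split was found with plain totals, where 7.80% of all genes were lower and 36.1% higher.

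Among 26 other general endothelial genes, 9 were lower by treat and 0 higher (median -0.71), where 16.9% and 15.9% of all genes were. With plain totals 4 were lower and 1 higher, where 7.80% and 36.1% of all genes were. *S1pr1*, the receptor for sphingosine 1-phosphate (-2.11, SE 0.180, limma treat adjusted p = 1.77e-05), and *Calcrl*, the adrenomedullin receptor (-1.997, SE 0.154, limma treat adjusted p = 9.45e-06), led them. Capillary and sprouting genes went the other way: of 16 tested, 7 were higher and 1 lower (median 0.95). Of all genes, 15.9% were higher and 16.9% lower. *Mcam*, an adhesion molecule of vessels and mural cells (2.03, SE 0.379, limma treat adjusted p = 0.00553), and *Col4a1*, a chain of basement membrane collagen (1.82, SE 0.249, limma treat adjusted p = 0.00103), rose the most, and *Igfbp7*, a secreted protein of vessels, was the one that was lower (-1.63, SE 0.238, limma treat adjusted p = 0.00224). With plain totals 9 were higher and 0 lower, where 36.1% of all genes were higher and 7.80% lower. *Mcam* and *Col4a1* are also made by cells other than endothelium.

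The VEGF, angiopoietin and Notch list was mixed, with 3 of 15 tested genes lower by treat and 2 higher (median 0.11). These counts lie near the shares of all genes, 16.9% lower and 15.9% higher. *Nrp1*, a co-receptor for VEGF, went from 14.7 ± 4.01 FPKM to 0.626 ± 0.116 FPKM (log2 difference -3.24, SE 0.216, limma treat adjusted p = 9.86e-07), and the ligand gene *Vegfa* from 46.5 ± 7.89 FPKM to 13.4 ± 2.43 FPKM (-1.72, SE 0.219, limma treat adjusted p = 7.33e-04). The Notch ligand gene *Jag2* (2.96, SE 0.312, limma treat adjusted p = 4.08e-05) and the receptor gene *Notch1* (1.15, SE 0.192, limma treat adjusted p = 0.0215) were higher. *Vegfa* was not called with plain totals (log2 difference -0.82, treat adjusted p = 0.252), whereas *Nrp1* was (-2.48, treat adjusted p = 1.53e-05). The list then had 1 gene lower and 6 higher (median 0.54), where 7.80% of all genes were lower and 36.1% higher. Which cells of the bulk tissue carried these transcripts was not tested.

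**Figure D4:**
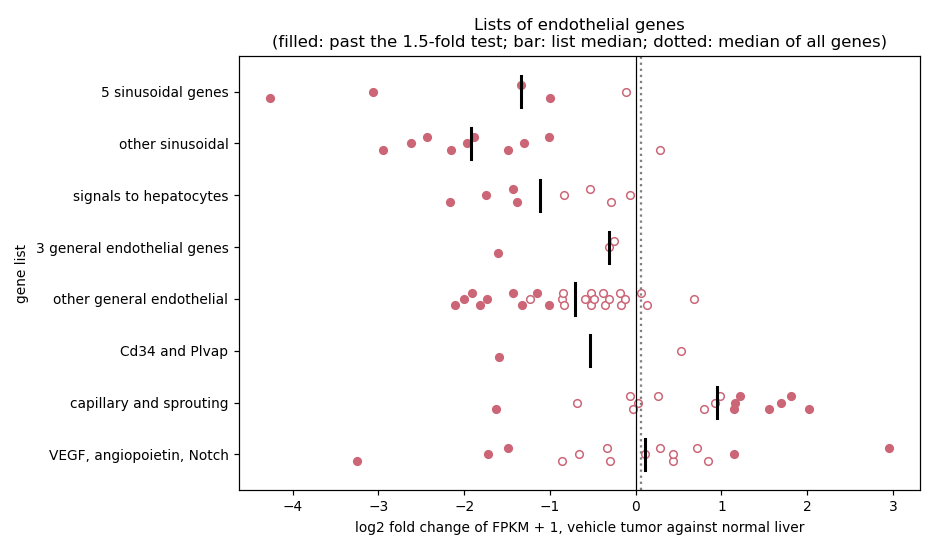
Log2 difference of FPKM + 1 between vehicle tumors and normal liver for each tested gene of 8 endothelial lists (one point per gene, filled where limma's treat test was passed, bar at the list median, dotted line at the median of all tested genes). The sinusoidal lists lie to the left, with medians of -1.34 and -1.92, and the capillary and sprouting list to the right, with a median of 0.95.

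Markers of other cells that carry some of these transcripts also differed. Kupffer cell and macrophage markers, 12 in all, summed to 410 to 521 FPKM in NL and 176 to 248 FPKM with vehicle, with 4 lower by treat, led by *Clec4f* (-3.55) and *Vsig4* (-3.29), and 1 higher (*Cd68*, 2.30). Stellate and mural markers split, with 4 of 10 lower (*Dcn*, -3.35; *Lrat*, -3.12) and 2 higher (*Col1a1*, 2.98; *Acta2*, 2.27). The 7 B and T lymphocyte markers listed summed to 1.58 to 3.13 FPKM in NL and 0.335 to 0.779 FPKM with vehicle, and none passed the filter. Erythroid markers were lower in 4 of 5 tested (*Alas2*, -5.03; *Hbb-bs*, -2.63), hepatocyte markers in 6 of 8 (*Cyp2e1*, -8.93; *Pck1*, -6.32), and cholangiocyte markers were higher in 3 of 4 (*Krt19*, 4.13; *Epcam*, 1.504). Of 2 platelet and 2 lymphatic markers tested, 0 were called. By the same test 16.9% of all genes were lower and 15.9% higher. These sums and counts are on the FPKM as deposited. With plain totals the Kupffer cell and macrophage markers had 3 lower and 1 higher, with a median log2 difference of -0.29 instead of -1.14. The median of all genes was then 0.62 instead of 0.06. Stellate and mural markers then had 4 lower and 4 higher, erythroid markers 2 lower, hepatocyte markers 5 lower and cholangiocyte markers 3 higher. Among all genes 7.80% were then lower and 36.1% higher. The part of these cells in the values of *Fcgr2b*, *Stab1*, *Lyve1* and *Pecam1* was not tested.

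Both drug groups showed the same 6 genes lower than NL by treat, against the same NL libraries, where 20.2% of all genes were lower with MLN0128 and 18.4% with everolimus. Between the tumor groups no member was called by treat; the comparisons of each drug with vehicle share the vehicle libraries. On the FPKM as deposited, 0 of 10 passed limma's treat or moderated test against vehicle at an adjusted p of 0.05 with MLN0128, where 2.13% of all genes passed treat and 32.0% the moderated test. With everolimus 0 of 10 passed either test, where 0.604% and 9.83% of all genes passed. Between MLN0128 and everolimus 0 of 10 passed either test, where 0.0417% and 9.53% did. At an unadjusted p under 0.05 there was 1 of the 10 with MLN0128 (42.9% of all genes), 0 with everolimus (26.8%) and 1 between the drugs (27.0%), and 0 were called by voom on recovered reads in each of these comparisons, where 5.34%, 1.19% and 0.0910% of all genes were.

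That 1 gene was *Fcgr2b*, at 2.26, 1.76 and 2.48 FPKM with MLN0128 and 1.27, 1.98 and 0.659 FPKM with everolimus. The MLN0128 libraries were all above the vehicle libraries (1.16 to 1.38 FPKM) and overlapped those with everolimus. The log2 difference from vehicle was 0.48 (95% interval 0.07 to 0.90, unadjusted p = 0.0253, adjusted p = 0.0702 by limma) and that between the drugs 0.49 (0.08 to 0.91, adjusted p = 0.119). The difference from vehicle passed the moderated test with plain library totals (0.62, limma adjusted p = 0.0436), when only those 2 groups were fitted (limma adjusted p = 0.0324), and without everolimus replicate 2 (0.0301) or replicate 3 (0.0291). That between the drugs passed without everolimus replicate 2 (limma adjusted p = 0.0278) but not with plain totals (0.0859). None of these settings gave a call against 1.5-fold, and with MLN0128 represented only by its library without Xist RNA the adjusted p was 0.164 and 0.251. In these libraries 5 of 12 Kupffer cell and macrophage markers were lower with MLN0128 than with vehicle by the moderated test and 0 higher. Of all genes, 32.0% passed that test in either direction. These markers summed to 84.1 to 157 FPKM with MLN0128 against 176 to 248 FPKM with vehicle. The 7 lymphocyte markers summed to 0.603 to 2.13 FPKM against 0.335 to 0.779 FPKM. The part of these cells in the *Fcgr2b* value was not tested.

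The other sinusoidal genes differed less from vehicle than their intervals could resolve. *Stab2* was at 1.35, 1.81 and 1.11 FPKM with MLN0128 (log2 difference from vehicle -0.42, 95% interval -0.86 to 0.02) and at 1.86, 3.32 and 1.54 FPKM with everolimus (-0.03, -0.47 to 0.41). *Stab1* was at 1.27, 1.59 and 1.67 FPKM (-0.30, -0.65 to 0.04) and at 1.29, 2.41 and 1.53 FPKM (-0.19, -0.54 to 0.15), respectively. *Clec4g* was at 0.715, 0.877 and 0.391 FPKM with MLN0128 (0.12, -0.25 to 0.49) and at 0.215, 0.792 and 0.163 FPKM with everolimus (-0.15, -0.52 to 0.22). For *Lyve1*, at 2.04, 2.70 and 1.19 FPKM with MLN0128 and 0.998, 3.37 and 1.32 FPKM with everolimus, the log2 differences were -0.53 (-1.24 to 0.19) and -0.62 (-1.34 to 0.10), the widest intervals of the 10.

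*Kdr* had the narrowest intervals, at 1.58, 1.48 and 1.22 FPKM with MLN0128 and 1.52, 1.52 and 1.42 FPKM with everolimus. Its log2 differences from vehicle were 0.01 (-0.24 to 0.26) and 0.05 (-0.21 to 0.30). These intervals left out 1.5-fold of FPKM + 1, as did those of *Clec4g*, *Pecam1* and *Cd34* with both drugs. At such low levels a change of FPKM + 1 understates the change of FPKM. *Pecam1* was at 2.07, 2.34 and 2.36 FPKM with MLN0128 (-0.20, -0.49 to 0.09) and 2.10, 2.79 and 2.79 FPKM with everolimus (-0.08, -0.36 to 0.21). *Cdh5* was at 3.77, 4.79 and 3.89 FPKM (-0.22, -0.64 to 0.19) and at 3.98, 6.67 and 4.76 FPKM (0.01, -0.40 to 0.43), respectively. On the FPKM as deposited, none of these 3 was separated from vehicle with everolimus, and with MLN0128 only *Pecam1* was. With plain library totals *Pecam1* overlapped with vehicle as well.

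*Cd34* was at 0.493, 0.759 and 0.883 FPKM with MLN0128 (log2 difference -0.18, 95% interval -0.45 to 0.08) and at 0.871, 0.589 and 1.04 FPKM with everolimus (-0.08, -0.35 to 0.18). *Plvap* was at 8.42, 9.63 and 7.01 FPKM with MLN0128 (-0.07, -0.65 to 0.51) and at 7.27, 18.2 and 9.03 FPKM with everolimus (0.26, -0.32 to 0.84). The *Plvap* value with everolimus rested on replicate 2, which was alone the highest of its group for 7 of the 10 genes; without it the log2 difference was -0.10. In that library the 8 hepatocyte markers summed to 8508 FPKM (4074 and 3729 in the other 2). Most of that sum was *Alb* (4860 FPKM, against 1320 and 851). *Ass1* lay below both others (518 FPKM, against 656 and 624), *Cps1* between them, and the other hepatocyte markers above both. The Kupffer cell and macrophage markers summed to 285 FPKM (121 and 138). The cholangiocyte markers summed to 61.8 FPKM (20.1 and 17.2), most of it *Spp1* (57.5 FPKM, against 19.2 and 15.8). The part of these cells in the endothelial values of that library was not tested. Against vehicle, on the FPKM as deposited, 4 genes lay lower with no overlap with MLN0128 (*Stab1*, *Stab2*, *Pecam1* and *Cd34*) and 1 higher (*Fcgr2b*). Of all genes, 23.4% lay lower and 22.1% higher in this way. With everolimus 0 did, where 14.8% and 17.6% of all genes did. With plain library totals *Stab2* still lay lower and *Fcgr2b* higher with MLN0128, but *Stab1*, *Pecam1* and *Cd34* overlapped with vehicle.

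Divided by *Cdh5* in the same library, *Fcgr2b* was 0.367 to 0.638 with MLN0128, above 0.228 to 0.300 with vehicle, and *Kdr* was 0.309 to 0.419, above 0.257 to 0.295. *Stab2* was 0.285 to 0.378 with MLN0128, below 0.386 to 0.537 with vehicle. These 2 genes above and 1 below compare with 25.7% and 9.50% of all genes. With everolimus *Stab1* (0.321 to 0.361) lay below vehicle (0.364 to 0.480), as did *Lyve1* (0.251 to 0.505, against 0.527 to 0.825), and none lay above, where 10.7% of all genes lay below and 4.58% above. The other members overlapped with vehicle on this ratio in both comparisons.

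**Figure D5:**
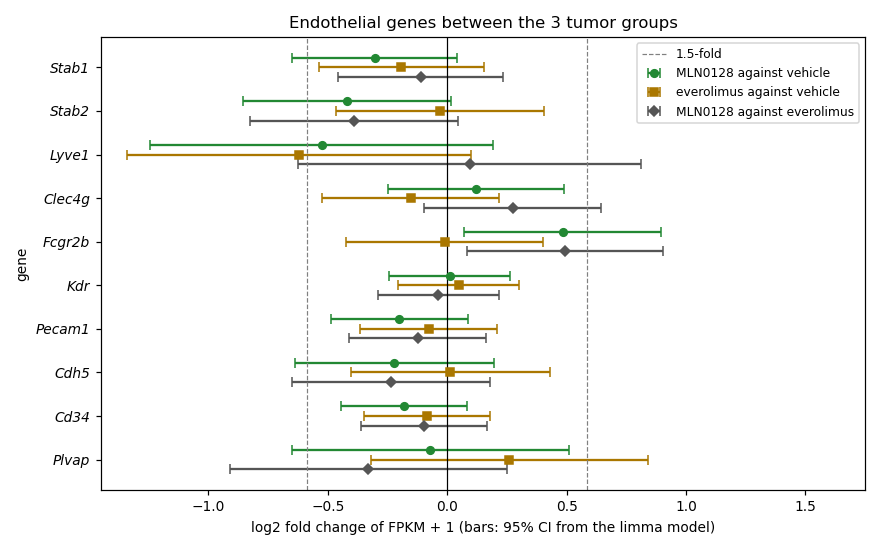
Log2 difference of FPKM + 1 for each gene between the 3 tumor groups (horizontal axis, bars are 95% intervals of the limma model). Dashed lines mark 1.5-fold of FPKM + 1. Each of the 30 intervals except the 2 of *Fcgr2b* that involve MLN0128 spans 0.

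On the FPKM as deposited, the other endothelial lists (10, 8, 26, 16 and 15 tested genes) gave 0 genes called by treat with either drug against vehicle. Of all genes, 2.13% were called with MLN0128 and 0.604% with everolimus, so the 0 does not set these lists apart. The moderated test was passed by 32.0% and 9.83% of all genes. By the moderated test, *Angpt2*, the angiopoietin of sprouting vessels, was lower with MLN0128 (-0.67, SE 0.230, limma adjusted p = 0.0433) and with everolimus (-1.18, SE 0.230, limma adjusted p = 0.00940), and *Notch1* was higher (1.15 and 0.69, SE 0.192, limma adjusted p = 0.00132 and 0.0431); these were picked after their values were seen, as genes called in both comparisons. With plain library totals *Angpt2* with MLN0128 no longer passed (-0.58, limma adjusted p = 0.0690) and *Notch1* with MLN0128 was called by treat as well (1.31, limma treat adjusted p = 0.0396). The marker genes called by treat were *Krt19* and *Sox9* with MLN0128 (-4.05 and -1.51) and *Krt19* with everolimus (-4.04), keratin and transcription factor genes of bile duct cells.

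The 5 tested genes whose pattern over the 12 libraries was most like that of *Stab2* (Pearson r of log2(FPKM + 1)) were *Flt4* (0.989), *Alb* (0.987), *Hsd17b6* (0.983), *Fcna* (0.981) and *Colec11* (0.980). These r mostly describe the distance between NL and the tumors, which the libraries share. *Stab1* ranked 31 of all tested genes (0.971) and *Plvap* 169 (0.957), while *Lyve1* had an r of 0.630 and *Cd34* of -0.799. Over the 9 tumors alone, the genes most like *Cdh5* were *Palld* (0.940), *F830016B08Rik* (0.916), *Atoh8* (0.903), *Flt4* (0.902) and *Sema6d* (0.901), and those most like *Plvap* were *P2ry12* (0.974), *Tmtc2* (0.961), *Palmd* (0.953), *Sntg2* (0.940) and *Rapgef4os1* (0.932). Among the 10 genes in these 9 tumors, *Cdh5* went with *Plvap* (r = 0.862), *Stab2* (0.826), *Stab1* (0.819), *Pecam1* (0.798) and *Lyve1* (0.769), and not with *Fcgr2b* (-0.128) or *Cd34* (-0.0212). The 9 points share libraries and scaling, and everolimus replicate 2 lies at the high end of several of them. The most alike genes were picked as the highest r of all tested genes. How high r of unrelated genes reaches over so few libraries was not tested.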

How the data were processed

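The deposited values are FPKM, which the authors made from libraries prepared and sequenced by Novogene, counting reads per Ensembl gene. The submitters' processing notes name FastQC 0.11.7 and GRCm38; the aligner, the counter and its strand setting are not given in the sources used here. The authors called genes with edgeR's glmTreat; no counts were used here.

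The 10 genes and the other lists were chosen with earlier results of these data known, and no count over a list is independent evidence. The rule for the genes named from the other lists was the 2 with the largest difference in each direction among those called in vehicle against NL or a drug against vehicle, and the 5 genes most like *Stab2*, *Cdh5* and *Plvap*. FPKM were taken as log2(FPKM + 1), which understates changes of low genes, and genes with at least 0.5 FPKM in 3 of 12 libraries were kept. All 12 libraries entered 1 limma model (limma 3.58.1, R 4.3.3, intensity trend, 8 residual degrees of freedom). Calls used treat against 1.5-fold, with p-values adjusted by Benjamini-Hochberg over 14397 genes at 0.05, and moderated tests stand beside them. Mice are the replicates.

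Reads were recovered from FPKM and GENCODE M21 exon lengths: 98.2% to 98.8% of values under 20 reads fell within 0.1 of a whole read, where chance gives 20.0%. In the files 22 symbols had been turned into dates. Replicate numbers did not pair the samples. Alternatives were the pseudocount, filter, scaling, threshold, groups in the model, trend, block, each library left out, and 3 chosen after seeing the data (voom on recovered reads with either scaling, and MLN0128 without its Xist libraries). The fits were tested on simulated data. Python 3.11.15 with pandas 2.3.3 and matplotlib 3.10.9 was used.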

Additional observations from a re-analysis of the deposited data

How the results depend on the processing

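The 6 calls between vehicle tumors and normal liver depended on the scaling: 3 genes were called when FPKM were scaled to 1 common sum (*Clec4g* and *Fcgr2b* lower, *Cd34* higher) and 3 with plain library totals (*Clec4g*, *Fcgr2b* and *Kdr* lower). Of all genes, 7.33% were lower and 49.1% higher with the common sum, and 7.80% and 36.1% with plain totals. For MLN0128 against normal liver these scalings gave 3 calls (2 lower, 1 higher, where 6.93% and 55.7% of all genes were) and 2 (both lower, where 8.04% were), against 6. For everolimus against normal liver they gave 3 (2 lower, 1 higher, where 7.29% and 47.2% were) and 2 (both lower, where 8.03% were), against 6. Leaving out a library gave 5 to 6 calls in the vehicle comparison. No alternative gave a call by treat between tumor groups. With the replicate number as a replicate block the calls numbered 6 in each comparison with normal liver and 0 between tumor groups; same-numbered libraries did not deviate together (r from -0.289 to 0.148 over 18 pairs, 1 of them over 0.1). Depth limits *Clec4g* in the tumors (10 to 59 reads per library) and *Cd34* in normal liver (19 to 33 reads).

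Signs that turned belonged to differences that treat did not call. For vehicle against normal liver, with the common sum, plain totals, and voom with plain totals, the log2 differences became 0.68, 0.38 and 0.53 for *Pecam1*, 0.91, 0.58 and 0.79 for *Lyve1*, and 0.82, 0.52 and 0.64 for *Cdh5*. For MLN0128 against vehicle, the same settings gave 0.16, 0.065 and 0.075 for *Plvap*, quantile normalization gave -0.070 for *Kdr*, and the MLN0128 library without Xist RNA alone gave -0.12 for *Kdr* and -0.12 for *Clec4g*. For everolimus against vehicle, quantile normalization gave 0.0070 for *Fcgr2b*. For MLN0128 against everolimus, the common sum gave 0.024 for *Cd34*, 0.069 for *Pecam1*, 0.062 for *Stab1* and 0.15 for *Kdr*, plain totals gave 0.048 and voom with plain totals 0.084 for *Kdr*, and the MLN0128 library without Xist RNA gave 0.046 for *Cd34* and -0.32 for *Lyve1*. The cause was not tested.

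Leaving out 1 library also turned signs. For vehicle against normal liver, the values with 1 library left out ran from -0.37 to 0.11 for *Lyve1*. For MLN0128 against vehicle, the values with 1 library left out ran from -0.17 to 0.037 for *Plvap*, from -0.050 to 0.11 for *Kdr*. For everolimus against vehicle, the values with 1 library left out ran from -0.16 to 0.015 for *Cd34*, from -0.12 to 0.020 for *Pecam1*, from -0.22 to 0.21 for *Fcgr2b*, from -0.16 to 0.15 for *Cdh5*, from -0.099 to 0.51 for *Plvap*, from -0.26 to 0.13 for *Stab2*, from -0.012 to 0.15 for *Kdr*. For MLN0128 against everolimus, the values with 1 library left out ran from -0.13 to 0.43 for *Lyve1*, from -0.58 to 0.029 for *Plvap*, from -0.23 to 0.057 for *Stab1*, from -0.084 to 0.025 for *Kdr*.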

Other observations

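Transcripts on the opposite strand of these genes had their own values. *Gtpbp3*, which overlaps *Plvap*, was at 4.31 to 5.01 FPKM in normal liver, 5.33 to 7.32 FPKM with vehicle, 7.90 to 10.3 FPKM with everolimus and 9.79 to 11.6 FPKM with MLN0128. *Gm16268*, antisense to *Stab2*, was at 0.24 to 1.16 FPKM in normal liver and at most 0.137 FPKM in the tumors. *Gm16553*, antisense to *Clec4g*, was at 0.127 to 0.937 FPKM in normal liver and at most 0.131 FPKM in the tumors. How far reads of such neighbours enter the values of *Plvap*, *Stab2* and *Clec4g* was not tested.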
